A study of Rattus norvegicus with 3 samples.

Results

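The mitosis and cell cycle genes described here are 40 listed cyclins and cyclin-dependent kinases (CDKs), mitotic kinases, spindle and kinetochore proteins, parts of the machinery that ends mitosis, proliferation markers and cell cycle transcription factors. They were found on a rat expression array by gene name, and 37 of the 40 were measured, out of 15924 named genes. Of the listed genes, Cdca3, Cenpe and Ndc80 matched no named probe and were not analysed here. Of the measured members 31 act mainly in G2 and mitosis (G2/M) and 6 at the entry into and start of DNA synthesis (G1/S), namely Ccnd1, Ccne1, Ccne2, Cdk2, E2f1 and Mybl2. Cyclin A2, which works in S phase as well as in G2, was placed with the G2/M members.

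The cells were NR8383, an established line of rat alveolar macrophages, the phagocytes that clear particles from the lung surface. One group was exposed to CNT-2 and another to CNT-1, both impurity-free single-wall carbon nanotubes at 0.1 mg/mL in 1 mg/mL bovine serum albumin (BSA) for 24 h, and the third was the control. One label names the control as untreated and another as a BSA solvent control, so whether it received albumin is not settled. What sets CNT-2 apart from CNT-1 as a material is not stated in the labels. Total RNA was hybridised to 1-colour Agilent arrays, and the deposited table holds 1 column of log2 differences per group, so every difference below lacks a replicate check and no test was made. All groups share a single cell line, and in such bulk RNA fewer dividing cells and less RNA per cell cannot be told apart.

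Cells divide by switching CDKs on and off in order. Cyclin D and cyclin E, with their kinases, release E2F factors that start the genes of DNA synthesis, and cyclin B with CDK1 drives the cell into mitosis. There the kinesins and bundling proteins build the spindle, checkpoint kinases watch the kinetochores, and the anaphase-promoting complex (APC/C) ends mitosis by destroying cyclins and securin. Transcripts of the G2/M genes are known to be made late in the cycle, through B-Myb and FoxM1 and through promoter elements called the CCAAT box and the cell cycle homology region (CHR). Macrophages in the lung divide little, whereas this line grows continuously in culture.

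The promoters below belong to the members at the ends of the range of values, to the cyclin B pair and to cyclin E1, the measured cyclin E with a window, and they show how far the known elements are present or missing. Each is 300 bases, from 250 before to 50 after the annotated start, in the gene's own direction, from RefSeq assembly GRCr8. Capitals mark each CCAAT box (CCAAT, or ATTGG on the other strand) and each CHR (TTTGAA or TTCGAA, on either strand). Gtse1, the lowest member in CNT-2, lies on the + strand of chr7:118829923-118830222.
Gtse1: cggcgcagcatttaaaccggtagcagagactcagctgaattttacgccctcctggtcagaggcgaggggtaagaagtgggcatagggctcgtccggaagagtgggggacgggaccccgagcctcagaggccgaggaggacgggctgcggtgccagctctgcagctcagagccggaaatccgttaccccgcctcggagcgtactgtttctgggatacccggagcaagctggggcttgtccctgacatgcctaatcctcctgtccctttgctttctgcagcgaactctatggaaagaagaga
Nusap1, the second lowest member, lies on the + strand of chr3:127057045-127057344, and its promoter was added to the set after the motifs had been seen.
Nusap1: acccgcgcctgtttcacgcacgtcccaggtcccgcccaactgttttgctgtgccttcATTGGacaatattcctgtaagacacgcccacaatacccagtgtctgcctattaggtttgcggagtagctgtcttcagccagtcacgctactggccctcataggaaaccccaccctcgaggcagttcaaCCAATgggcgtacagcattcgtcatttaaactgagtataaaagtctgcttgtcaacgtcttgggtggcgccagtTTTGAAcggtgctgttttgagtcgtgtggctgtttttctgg
Ccnb2 and Ccnb1 encode cyclins B2 and B1, on the - strands of chr8:79981609-79981908 and chr2:33655176-33655475.
Ccnb2: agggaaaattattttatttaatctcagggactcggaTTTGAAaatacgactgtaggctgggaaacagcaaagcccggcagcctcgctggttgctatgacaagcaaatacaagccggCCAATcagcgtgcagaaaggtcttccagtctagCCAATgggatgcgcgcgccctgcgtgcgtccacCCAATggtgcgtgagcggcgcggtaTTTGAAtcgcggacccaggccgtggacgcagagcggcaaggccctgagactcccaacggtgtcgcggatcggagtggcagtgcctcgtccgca
Ccnb1: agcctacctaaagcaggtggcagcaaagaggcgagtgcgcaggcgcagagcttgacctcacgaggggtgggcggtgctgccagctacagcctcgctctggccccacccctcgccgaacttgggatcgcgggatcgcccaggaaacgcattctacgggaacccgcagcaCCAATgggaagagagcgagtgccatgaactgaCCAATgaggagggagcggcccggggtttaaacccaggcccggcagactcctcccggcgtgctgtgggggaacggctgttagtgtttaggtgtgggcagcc
Cdc25c, the member nearest to control in CNT-2, lies on the - strand of chr18:26630243-26630542.
Cdc25c: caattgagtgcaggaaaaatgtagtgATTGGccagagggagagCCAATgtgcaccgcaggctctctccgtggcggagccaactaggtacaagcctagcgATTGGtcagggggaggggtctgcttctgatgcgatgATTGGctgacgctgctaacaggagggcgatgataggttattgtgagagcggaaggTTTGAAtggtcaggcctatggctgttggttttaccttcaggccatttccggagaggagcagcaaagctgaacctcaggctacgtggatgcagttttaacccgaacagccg
Ccne1, a G1/S member, lies on the - strand of chr1:99927860-99928159.
Ccne1: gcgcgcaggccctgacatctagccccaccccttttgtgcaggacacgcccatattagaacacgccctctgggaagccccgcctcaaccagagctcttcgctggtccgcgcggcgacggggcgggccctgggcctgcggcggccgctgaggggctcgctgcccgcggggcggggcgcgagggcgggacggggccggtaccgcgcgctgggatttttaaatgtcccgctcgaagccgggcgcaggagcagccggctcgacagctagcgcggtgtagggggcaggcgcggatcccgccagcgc
The Gtse1 and Ccne1 windows hold neither element. Nusap1 holds CCAAT boxes at -193 and -65 and a CHR at 10, counted from the start at 1 with no 0. Cyclin B2 has 3 CCAAT boxes, at -134, -101 and -68, and CHR letters at -214 and -43, whereas cyclin B1 has 2 CCAAT boxes, at -82 and -50, and no CHR letters in this window. Cdc25c has 4 CCAAT boxes and a CHR at -60. Ccne2 and Ccnd1, the lowest and highest G1/S members, are named only.

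In cells exposed to CNT-2 every measured member lay below control, and 27 of 37 (73.0%) were at least 2-fold lower, which here means a difference of at least 1 log2 unit. Over all named genes 6.56% were at least 2-fold lower and 10.1% at least 2-fold higher in the same comparison. No member was 2-fold higher. The median of the members was -1.24, with a range from -3.40 for Gtse1 to -0.36 for Cdc25c, against a median of 0.04 over all genes. Of the 37 members, 34 were among the lowest 10% of all genes, 21 among the lowest 5%, and 11 were at or below -1.5. All 52 member probes lay below control and 39 of them were at least 2-fold lower, and 25 members had every probe past that line. The line itself passed through a dense stretch of values: Ccnb1 and E2f1 lay just past it at -1.01 each, and Cdc20, Cdk2, Cdca8, Bub1, Aurka and Aurkb lay between -0.99 and -0.94. Quantile normalization gives the narrow control column the same spread as the other columns. After it 2 of 37 members were at least 2-fold lower, Gtse1 at -2.12 and Nusap1 at -1.24, against 544 of all 15924 named genes. The share of members past the line was then near that of any genes. On that scale 25 of 37 members were among the lowest 10% of all genes. There 36 of 37 members still lay below control with a median of -0.60, and Prc1 turned to 0.26.

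**Figure D1:**
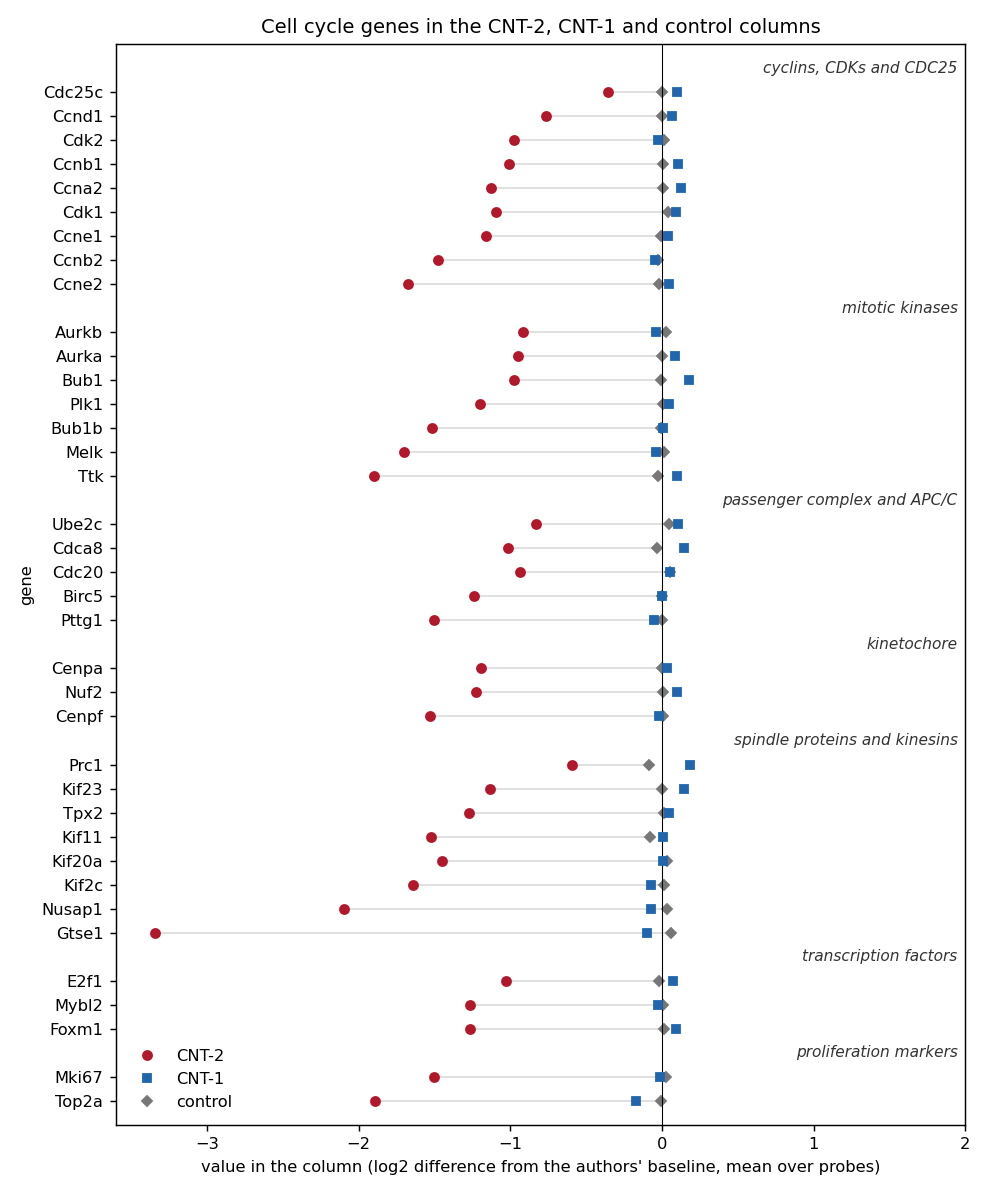
Each row is a gene, the horizontal axis is its deposited value (log2 difference from the authors' baseline, mean over probes) and the symbols are the CNT-2, CNT-1 and control columns, grouped by role. All 37 red CNT-2 points lie left of 0, from -3.34 for Gtse1 to -0.35 for Cdc25c, while the CNT-1 and control points stay between -0.17 and 0.19.

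The spindle proteins and kinesins included the lowest members, Gtse1 and Nusap1, with 7 of 8 at least 2-fold lower in CNT-2 and a median of -1.46. Gtse1, a microtubule-binding protein of G2 and S phase, was at -3.34 in CNT-2, -0.10 in CNT-1 and 0.06 in control. This single probe put CNT-2 10.5-fold below control, at rank 18 from the lowest of all named genes. Nusap1, which bundles spindle microtubules next to chromatin, was at -2.10 in CNT-2, -0.07 in CNT-1 and 0.03 in control, a difference of -2.13. Kif2c, a kinesin that takes microtubule ends apart, read -1.64 in CNT-2, -0.07 in CNT-1 and 0.01 in control. Kif20a, a kinesin of cytokinesis, read -1.45 in CNT-2, 0.004 in CNT-1 and 0.04 in control. In these 4 genes the CNT-1 and control columns lay close together, and CNT-2 stood far below both. For Kif11, the motor that pushes the spindle poles apart, the columns held -1.52 in CNT-2, 0.005 in CNT-1 and -0.08 in control, a difference of -1.44 ± 0.17 (probe SD, 2 probes). Tpx2, which activates Aurora A on the spindle, was at -1.28 in CNT-2, 0.05 in CNT-1 and 0.01 in control. Kif23, a kinesin of the midbody, was at -1.13 in CNT-2, 0.15 in CNT-1 and -0.002 in control. Prc1, which cross-links the microtubules of the midzone, was the exception among them, at -0.59 in CNT-2, 0.19 in CNT-1 and -0.09 in control. Its difference of -0.51 from control was the second smallest of all members, and its CNT-1 difference of 0.27 the highest.

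Among the cyclins, CDKs and CDC25, 6 of 9 were at least 2-fold lower in CNT-2, with a median of -1.13, and the partners of a pair did not lie at the same level. Cyclin E2 (Ccne2) read -1.68 in CNT-2, 0.05 in CNT-1 and -0.02 in control, a difference of -1.66 ± 0.10 (probe SD, 2 probes). Cyclin E1 (Ccne1) read -1.16 in CNT-2, 0.04 in CNT-1 and -0.01 in control, a difference of -1.15 ± 0.13 (probe SD, 2 probes). The probe values of the cyclin E genes, -1.73 and -1.59 for Ccne2 and -1.24 and -1.06 for Ccne1, did not overlap. Quantile normalization brought the 2 genes nearer to each other, at -0.72 for Ccne2 and -0.49 for Ccne1. Cyclin B2 (Ccnb2) was at -1.48 in CNT-2, -0.05 in CNT-1 and -0.02 in control. Cyclin B1 (Ccnb1), measured by 1 probe like its partner, was at -1.01 in CNT-2, 0.11 in CNT-1 and 0.01 in control. Cyclin B2 was thus 2.74-fold and cyclin B1 2.02-fold below control. After quantile normalization they lay close together, at -0.56 and -0.50. Cdk1, the kinase that cyclin B activates, was at -1.09 in CNT-2, 0.09 in CNT-1 and 0.04 in control. Cyclin A2 (Ccna2) was at -1.12 in CNT-2, 0.13 in CNT-1 and 0.01 in control, and its 2 probes differed by an SD of only 0.008 in the difference from control. Cdk2, the partner of cyclins E and A, was at -0.97 in CNT-2, -0.02 in CNT-1 and 0.02 in control. The remaining pair lay closest to control. Cyclin D1 (Ccnd1), which links growth signals to the cycle, was at -0.76 in CNT-2, 0.07 in CNT-1 and -0.001 in control. Cdc25c, a phosphatase that activates Cdk1, was at -0.36 in CNT-2, 0.10 in CNT-1 and 0.001 in control, only 1.28-fold lower in CNT-2.

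The mitotic kinases were split by the 2-fold line, with 4 of 7 past it in CNT-2 and a median of -1.20. Ttk, the kinase that starts the spindle checkpoint, was at -1.90 in CNT-2, 0.10 in CNT-1 and -0.03 in control, a difference of -1.87 ± 0.05 (probe SD, 2 probes). Melk, a kinase made in dividing cells, was at -1.70 in CNT-2, -0.04 in CNT-1 and 0.01 in control. Bub1b, the checkpoint protein BubR1, was at -1.51 in CNT-2, 0.005 in CNT-1 and -0.01 in control, a difference of -1.51 ± 0.20 (probe SD, 3 probes). These 3 kinases lay lower in CNT-2 than the other 4 of the group. Plk1, which acts at poles and kinetochores, was at -1.20 in CNT-2, 0.05 in CNT-1 and 0.004 in control. Bub1, the checkpoint partner of Bub1b, was at -0.97 in CNT-2, 0.18 in CNT-1 and -0.01 in control. Aurora A (Aurka), a kinase of the spindle poles, was at -0.95 in CNT-2, 0.09 in CNT-1 and 0.003 in control. Bub1 and both Aurora kinases thus stayed just short of the line, while Plk1 was past it.

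Aurora B forms the chromosomal passenger complex with survivin and borealin, and its subunits lay close together. Aurkb was at -0.91 in CNT-2, -0.04 in CNT-1 and 0.03 in control. Borealin (Cdca8) was at -1.02 in CNT-2, 0.14 in CNT-1 and -0.03 in control. Survivin (Birc5) was at -1.24 in CNT-2, -0.001 in CNT-1 and -0.002 in control. Around the APC/C the spread was wider. Securin (Pttg1), which holds the sister chromatids together until the APC/C destroys it, was at -1.501 in CNT-2, -0.05 in CNT-1 and -0.001 in control. Cdc20, which activates the APC/C, was at -0.94 in CNT-2 and at 0.05 in both CNT-1 and control. Ube2c, its ubiquitin-conjugating enzyme, was at -0.83 in CNT-2, 0.11 in CNT-1 and 0.05 in control. Of the 5 measured passenger and APC/C genes other than Aurkb, 2 were at least 2-fold lower, the substrate securin and survivin, and the median was -0.99.

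All 3 measured kinetochore genes were at least 2-fold lower in CNT-2. Cenpf, a large protein of the outer kinetochore, was at -1.53 in CNT-2, -0.02 in CNT-1 and 0.004 in control. Nuf2, a subunit of the complex that binds microtubules, was at -1.23 in CNT-2, 0.10 in CNT-1 and 0.01 in control. Cenpa, the histone that marks centromeres, was at -1.19 in CNT-2, 0.03 in CNT-1 and -0.002 in control. The transcription factors lay in the same range, with all 3 past the line. Foxm1 was at -1.27 in CNT-2, 0.09 in CNT-1 and 0.02 in control. E2f1, which starts the genes of DNA synthesis, was at -1.03 in CNT-2, 0.07 in CNT-1 and -0.02 in control. Mybl2, which encodes B-Myb, was at -1.27 in CNT-2, -0.03 in CNT-1 and 0.004 in control, but its probes disagreed, at -1.74 and -0.81 below control in CNT-2. That probe SD of 0.66 was the widest of the 14 members with several probes, whose median was 0.07 against 0.19 over all genes. The proliferation markers were both low. Top2a, the topoisomerase that untangles chromosomes, was at -1.89 in CNT-2, -0.17 in CNT-1 and -0.01 in control. Mki67, which coats mitotic chromosomes and is the usual stain for cycling cells, was at -1.5 in CNT-2, -0.01 in CNT-1 and 0.03 in control, a difference of -1.53 ± 0.06 (probe SD, 2 probes).

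The G2/M and G1/S members were then compared with each other. In CNT-2 the G2/M members had a median of -1.24 with an SD over genes of 0.54 (n = 31) and the G1/S members a median of -1.08 with an SD of 0.31 (n = 6). At least 2-fold lower were 23 of 31 G2/M members and 4 of 6 G1/S members. The difference of -0.16 between the medians was smaller than either spread over genes. Of the G2/M members 24 lay within the range of the G1/S members, 5 lay below cyclin E2, and Prc1 and Cdc25c lay above cyclin D1. The 5 below it were Gtse1, Nusap1, Top2a, Ttk and Melk. With the 14 members that have several probes, the difference between the medians was -0.44. That setting leaves out 23 G2/M members and no G1/S member, among them both the lowest, Gtse1, and the highest, Cdc25c. In CNT-1 the median was 0.04 for the G2/M members and 0.06 for the G1/S members, a difference of -0.02, and with 75th percentile centring the G2/M median was -0.02.

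**Figure D2:**
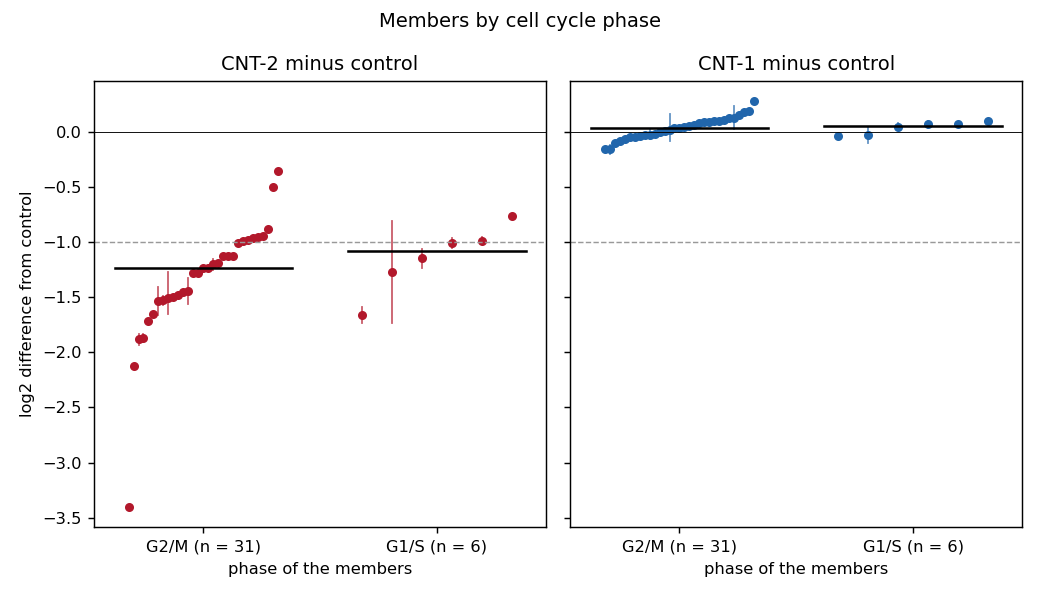
Points are members by phase, the vertical axis is the log2 difference of CNT-2 (left) or CNT-1 (right) from control, thin lines span the probes of a gene, thick bars are medians and the dashed line marks a 2-fold lower value. In CNT-2 the G2/M and G1/S medians of -1.24 and -1.08 lie within each other's spread, and in CNT-1 both lie near 0.

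CNT-1 left the members close to control. None of the 37 was at least 2-fold away in either direction, while 2.15% of all named genes were at least 2-fold lower and 1.16% at least 2-fold higher in CNT-1. The range was -0.16, for Gtse1 and Top2a, to 0.27, for Prc1, and the SD over members was 0.09, against 0.39 over all genes. By sign 13 members lay below control, 23 above it and Cdc20 at 0.00. The median was 0.04, or -0.01 when columns were centred on their 75th percentile, under which 21 of 37 lay below control. The signs are thus not settled at this size. Next to Prc1, the highest members in CNT-1 were Bub1 at 0.18, Cdca8 at 0.18 and Kif23 at 0.15, each from 1 probe, and all 3 were lower in CNT-2.

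Set directly against CNT-1, CNT-2 had 30 of 37 members at least 2-fold lower, against 4.65% of all named genes, and none of the members at least 2-fold higher, against 9.32% of all named genes. All 37 lay below CNT-1, with a median of -1.25 and a range from -3.24 for Gtse1 to -0.45 for Cdc25c. The 3 members past the line here and not against control were Cdca8 at -1.16, Bub1 at -1.15 and Aurka at -1.04. After quantile normalization 4 members were at least 2-fold lower, Gtse1 at -1.94, Ttk at -1.24, Nusap1 at -1.15 and Ccne2 at -1.03. Of all 15924 named genes 331 were at least 2-fold lower on that scale, and all 37 members remained below CNT-1. This comparison shares the CNT-2 column with the one against control, so it is no second observation.

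Other genes of the same processes, taken from lists that hold no member, were at similar values in CNT-2. Of 58 other G2/M genes 40 were at least 2-fold lower and 56 lay below control, with a median of -1.17. The share of all named genes at least 2-fold lower in this comparison was 6.56%. The lowest were Fbxo5 at -2.29, which inhibits the APC/C before mitosis, Aspm at -2.05, a spindle pole protein, Oip5 at -2.02, which helps load Cenpa, Plk4 at -1.85, the kinase of centriole duplication, Kif15 at -1.82, a spindle kinesin, and Sgo2 at -1.71, which protects centromere cohesion. Zwint, a kinetochore protein, was above control at 0.60, and Diaph3, a formin of the cytokinetic furrow, was at 0.09, a sign that turned negative when columns were centred on the median, the 75th percentile or the spike-in probes. Among the replication genes 33 of 46 were past the 2-fold line on the lower side, 45 lay below control, and the median was -1.28. Mcm10, a factor that loads polymerase at origins, was at -2.33 ± 0.37 (probe SD, 2 probes) and Pole2, a polymerase epsilon subunit, at -2.09. Pold3, a polymerase delta subunit, was the one above control at 0.37, or at -0.07 with 75th percentile centring. After quantile normalization 4 of the other G2/M genes and 3 of the replication genes were at least 2-fold lower, with medians of -0.57 and -0.64. On that scale 544 of all 15924 named genes were at least 2-fold lower. In CNT-1 none of the genes in either list was at least 2-fold away from control. Of all named genes 2.15% were at least 2-fold lower and 1.16% at least 2-fold higher there. After quantile normalization 2 of the other G2/M genes were at least 2-fold higher in CNT-1, Ckap2l at 1.19 and Diaph3 at 1.11. The CNT-1 medians were 0.07 for the other G2/M genes and -0.01 for the replication genes, or 0.20 and 0.16 after quantile normalization.

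Regulators of the G1 and S phases lay mostly below control in CNT-2, 13 of 16 of them. Of the 16 in the list without members, 7 (43.8%) were at least 2-fold lower in CNT-2 and 1 at least 2-fold higher, around a median of -0.70. The shares over all named genes were 6.56% and 10.1%. After quantile normalization none was at least 2-fold lower and the median was -0.32. Those lower included the repressors E2f7 at -1.69 and E2f8 at -1.59, the growth factor-driven activator Myc at -1.46, the E2F partner Tfdp2 at -1.41 and Skp2 at -1.25, which targets CDK inhibitors for destruction. Wee1, which restrains Cdk1, was at -1.06 and Cdc25a, a phosphatase that activates Cdk2, at -1.04. Ccng1, a cyclin known as a p53 target, was the gene on the higher side, at 1.34 in CNT-2, 0.28 in CNT-1 and -0.01 in control. Its difference of 1.35 was 0.91 with 75th percentile centring and 0.82 after quantile normalization, both short of 2-fold.

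The CDK inhibitors, pocket proteins and antiproliferative genes lay on both sides of control in CNT-2, with 3 of 22 (13.6%) at least 2-fold lower and 2 at least 2-fold higher around a median of -0.08. Over all named genes the shares were 6.56% lower and 10.1% higher, so the count on the higher side is near that of any genes. The inhibitors of the INK4 family, which block the cyclin D kinases, differed among themselves. Cdkn2b was at 1.20 in CNT-2, 0.06 in CNT-1 and -0.03 in control. Cdkn2d was at 1.07 in CNT-2, 0.40 in CNT-1 and 0.03 in control. Cdkn2c was at -1.44 in CNT-2, -0.10 in CNT-1 and 0.09 in control. Both genes on the higher side were short of 2-fold with 75th percentile or spike-in centring, at 0.79 and 0.98 for Cdkn2b and at 0.60 and 0.80 for Cdkn2d. The pocket proteins, which repress E2F targets, were split, with Rbl2 at -1.16 ± 0.18 and Rb1 at -0.10 ± 0.02 (probe SD, 2 probes each) and Rbl1 at -1.13, and after quantile normalization no gene of this list was at least 2-fold away in CNT-2. Cdkn1a, which encodes the inhibitor p21, did not reach 2-fold at 0.66 ± 0.18 (probe SD, 2 probes), and it and Rb1 were named for their roles, outside the rule for naming genes and after their values were seen. In CNT-1 none of the 22 was at least 2-fold away, with a median of 0.15, and after quantile normalization 1 was, Lin54 at 1.26. As deposited, 2.15% of all named genes were at least 2-fold lower and 1.16% at least 2-fold higher in CNT-1.

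Cyclins, CDKs and kinesins with duties outside the cycle served as a comparison by family. Some of them, such as Cdk7 and Ccnh, also have a part in the cycle, so the list is not free of cycle genes. Of 41 such genes 1 (2.44%) was at least 2-fold lower in CNT-2, against 6.56% of all named genes. At least 2-fold higher were 4, close to the 10.1% of all named genes, and 16 lay below control, with a median of 0.11. Cdk19, a kinase of the Mediator complex, was at -1.26 ± 0.11 (probe SD, 2 probes). Those higher were the transport kinesins Kif3a at 1.14, Kif3c at 1.46 and Kif5a at 1.09, and the cyclin Ccnj at 1.68, whose control value of -0.37 was far from 0. With 75th percentile centring 3 of these genes were at least 2-fold lower and 2 at least 2-fold higher, and the median was -0.33. None of them was at least 2-fold away in CNT-1, or 2 after quantile normalization, Ccnj at 2.34 and Kif12 at 1.27. The deposited CNT-1 shares over all named genes were 2.15% lower and 1.16% higher. The genes named here for their values after quantile normalization, and the macrophage markers given with the array controls, were chosen after those values were seen.

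**Figure D3:**
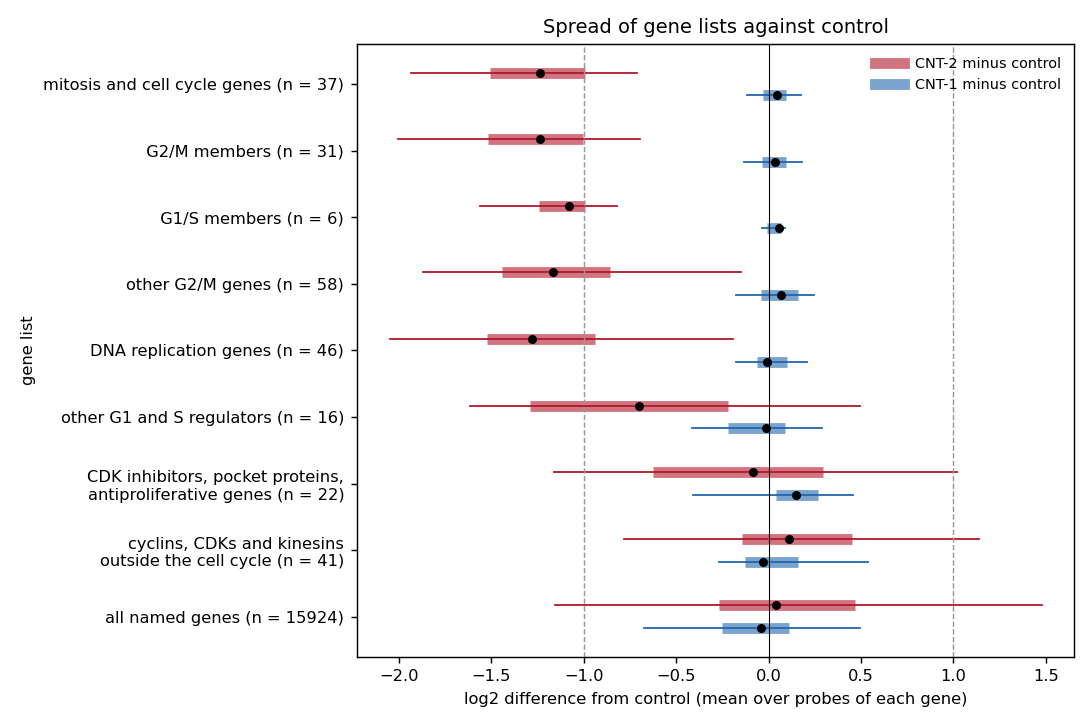
For each gene list the horizontal axis is the log2 difference of CNT-2 (red) or CNT-1 (blue) from control, with a dot at the median over genes, a thick bar from the 25th to the 75th percentile and a thin line from the 5th to the 95th. The medians of the members (-1.24), the other G2/M genes (-1.17) and the replication genes (-1.28) lie past the dashed 2-fold line in CNT-2, the median of the related genes outside the cycle is 0.11 (-0.33 with 75th percentile centring), and all medians lie near 0 in CNT-1.

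The promoters of the members were searched for 3 elements on both strands. They were the CCAAT box (CCAAT), the CHR (TTTGAA or TTCGAA), and an E2F element (TTTGGCGC, TTTCCCGC or TTCCCGCC). The last E2F forms can overlap, and a window counted once per element. A RefSeq window was found for 32 of the 40 members. Of 29 G2/M members, 72.4% held a CCAAT box, 55.2% held 2 or more and 65.5% held CHR letters, against 37.5%, 11.2% and 19.7% of all 33469 promoters in the table. CHR letters within 50 bases of the start were in 44.8% of the G2/M members and 5.65% of all promoters. The E2F letters were in 1 of the 29 (3.45%), Kif23, and in 2.90% of all promoters. With 1 window per gene, the 13145 named genes of the array held E2F letters in 4.63% and CHR letters in 16.4%. The 29 include Cdca3, Cenpe and Ndc80, which were not measured. The other G2/M genes held CHR letters in 77.6% of 58 promoters and E2F letters in 8.62%. The 42 DNA replication promoters showed the reverse, with CHR letters in 23.8% and E2F letters in 52.4%. Of the 3 G1/S members with a window, Cdk2 held 1 CCAAT box, Ccne1 and Mybl2 held none, and no CHR or E2F letters were found. The relatives outside the cycle held CHR letters in 11.4% of 35 and E2F letters in none of 35.

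**Figure D4:**
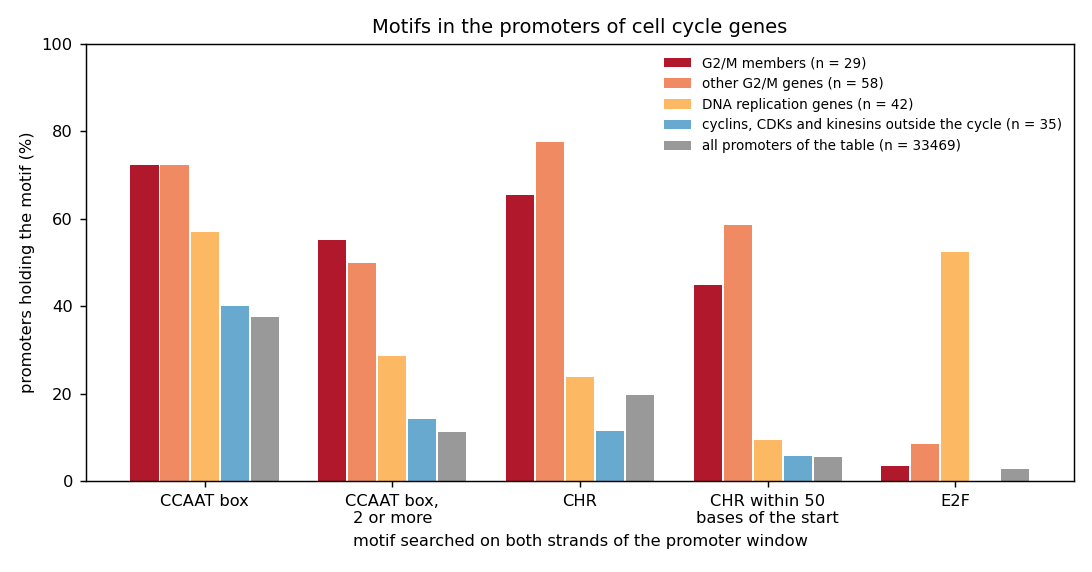
Bars give the percent of promoter windows of 300 bases that hold each element on either strand, by gene list, from 0 to 100%. The CHR bars of the G2/M members (65.5%) and other G2/M genes (77.6%) stand above that of all promoters (19.7%), and the E2F bar is highest for the replication genes (52.4%).

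G2/M members with and without CHR letters near the start overlapped in their values. The 12 measured members with CHR letters within 50 bases of the start had a median of -1.48 in CNT-2 minus control, with 11 at least 2-fold lower, and the 14 with a window but without such letters had a median of -1.16, with 9 at least 2-fold lower. The ranges ran from -2.13 to -0.51 with the letters and from -3.40 to -0.36 without them. Set against CNT-1, 11 of the 12 with the letters and 12 of the 14 without them were at least 2-fold lower. Cdc20, counted as without them, holds CHR letters at -51. By CCAAT boxes, 73.3% of 15 members with 2 or more and 81.8% of 11 with fewer were at least 2-fold lower than control, with medians of -1.46 and -1.24. The lowest member, Gtse1, is one of those without them, and Prc1 is the member with them that lay nearest to control. Of the cyclin B pair, Ccnb2 holds the letters at -43 and lay at -1.46, and Ccnb1 lay at -1.01. Each rests on 1 probe, and after quantile normalization they lay at -0.56 and -0.50. Whether the letters bear on these values was not tested. In CNT-1 the medians were 0.01 with the letters and 0.06 without them. A match describes letters only, and their absence from the window says nothing about a factor.

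The array as a whole gives the following setting for these values. Each probe is centred on its own baseline, so the table holds no expression levels, and the labelled cell type could not be checked against its markers by level. Of 26 alveolar macrophage markers 24 were measured, 14 of them below control in CNT-2 with a median of -0.13. At least 2-fold lower were 5, Fcgr1a at -2.56, Mrc1 at -2.24, Csf2rb at -1.51, Csf1r at -1.25 and Chi3l1 at -1.04, and at least 2-fold higher were 3, Fabp4 at 3.96, Cd14 at 3.37 and Bhlhe41 at 2.31. Of 44 measured markers of other lung and blood cells 19 lay below control in CNT-2, with a median of 0.10, 4 at least 2-fold lower and 4 at least 2-fold higher. At least 2-fold lower were thus 20.8% of the macrophage and 9.09% of the other markers, against 6.56% of all named genes. The counts on the higher side lay near the 10.1% of all named genes in both lists. The summed values of the macrophage markers were 4.18 in CNT-2, -1.29 in CNT-1 and 2.86 in control. In CNT-2 the sum is carried by Fabp4, Cd14 and Bhlhe41. In control Car4 at 1.01, Chi3l1 at 0.75 and Csf1r at 0.52 lay off their baselines. The sums of the other markers were 6.90 in CNT-2, -3.71 in CNT-1 and 2.86 in control. Since each probe has its own baseline, no such sum measures how much of a cell type is present. The files do not say what the array's control probes named DCP measure, and these differed by number: those numbered 0 to 5 were 0.22 ± 0.08 above control in CNT-2 (SD over 11 probes) and those numbered 6 and above -0.18 ± 0.26 (SD over 7 probes, -0.54 to 0.20). Probes for spiked-in RNA were 0.23 ± 0.10 above control in CNT-2 and -0.05 ± 0.07 in CNT-1 (SD over 10 probes each). The part of these markers and control probes in the lower member values was not tested. When columns were centred on the spike-in probes, the members were lower still in CNT-2, with a median of -1.48 and 35 of 37 at least 2-fold lower.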

How the data were processed

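The deposited table held 41103 probes in 3 columns, 1 for each group of NR8383 cultures. Its values are log2 differences as the authors deposited them, and each probe is centred on a baseline that matches no column. Base 2 was presumed from the values, since no source used here gives the base, the baseline or the normalization. Per the labels' protocols RNA was labelled with Cy3, and per the submitters' processing notes the scanner software was Agilent Feature Extraction 10.7.3.1. An n of 4 in the design text is tied to no column, so each column counted as 1 value, and no test or p-value was possible. The number of arrays limits the precision.

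Named probes (20932) were matched to RefSeq GRCr8 by accession (17415), current symbol (3113) or older symbol (396), and 8 kept the platform symbol. A gene's difference was the mean over its probes. The 52 member probes were matched by accession (44) or current symbol (8), and 23 members had 1 probe, 13 had 2 and 1 had 3. Members, lists and motifs were chosen with earlier results of these data known. Named genes were all members, genes past 2-fold in the lists of regulators and of relatives outside the cycle, the 6 lowest other G2/M genes and the 2 lowest replication genes, and any of those last lists at or above control. Promoter windows are from RefSeq. Python 3.11.15, pandas 2.3.3 and numpy 2.4.6 were used, and the steps were tested on simulated data. Alternatives were column centring on the median, the 75th percentile or spike-in probes, quantile normalization, a 1.5-fold line, other probe summaries, and leaving the control unsubtracted.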

Additional observations from a re-analysis of the deposited data

Results flagged for a closer look

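All 37 measured members lay below control in CNT-2 as deposited, with a median of -1.236, whereas their median in CNT-1 was 0.04. The same held for the G2/M genes, at -1.236 in CNT-2 and 0.04 in CNT-1, and for the G1/S genes, at -1.08 in CNT-2 and 0.06 in CNT-1. These results stand out because the same genes lay at different values under the 2 kinds of nanotube when set against the same control. The difference between the nanotubes was not tested, since each had 1 column.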

How the results depend on the processing

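Of 96 recomputed values of the main results, 84 kept within 1.5 times the count or within the median probe SD of the value. Some of these could not move, so the 84 is no measure of robustness. Centring shifts all genes of a column alike and cancels out of the G2/M minus G1/S difference. Leaving out probes near the negative control probe touched no member probe. Of the 96, 13 are the CNT-1 count of members at least 2-fold lower, which was 0 and stayed 0. The CNT-2 medians and phase difference stayed negative in every setting run. In CNT-1 the small values changed sign, the median of members being -0.01 with 75th percentile centring and the G2/M minus G1/S difference 0.003 without subtracting the control, against 0.04 and -0.02 as reported. With CNT-2 minus control, 27 members at least 2-fold lower became 2 after quantile normalization and 12 of 14 when genes with 1 probe were left out, and otherwise ranged up to 35. The median of -1.24 became -1.67 with 75th percentile centring, -1.48 with spike-in centring and -0.60 after quantile normalization. With CNT-2 minus CNT-1, 30 members became 4 and 12, and the median of -1.25 became -1.63, -1.53 and -0.81. The median in CNT-1 minus control became 0.17 after quantile normalization. The G2/M minus G1/S difference in CNT-2 became -0.44 without genes of 1 probe. Quantile normalization gives all columns the same spread by construction, so it changes the CNT-2 and CNT-1 columns as well as the narrow control column. The common values it assigns are averages over all columns, control included, so the control column also enters the shift of CNT-2 minus CNT-1. How much each column adds to the quantile shifts was not tested. The 14 genes are fewer by construction, and the cause of the other shifts was not tested. Over all named genes, 1045 at least 2-fold lower in CNT-2 became 2297, 1618 and 544 under these scalings, and 2193 at 1.5-fold. In CNT-1, 342 became 589 after quantile normalization, and in CNT-2 minus CNT-1, 741 became 1563, 1276 and 331. The all-gene median in CNT-2 minus control was 0.04 as deposited, -0.40 by the 75th percentile and -0.20 by spike-in probes. Without Gtse1, 26 of 36 members were at least 2-fold lower, and read as natural logs 35 of 37. No paired analysis was possible because each group has 1 column, and no replicate could be left out.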

Other observations

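Genes outside the cell cycle lists were searched for the same promoter letters. Of 12997 array genes in no cell cycle list, 5.87% were at least 2-fold lower in CNT-2. Of the 484 among them with CHR letters within 50 bases of the start, 8.06% were, with a median of -0.01. Of the 50 that also held 2 or more CCAAT boxes, 4 (8.0%) were, with a median of -0.02. Those 4, chosen after their values were seen, were Asf1b at -1.31, a histone chaperone that works at replication forks, Prr11 at -1.20, Fam111a at -1.18, a replication-linked protease, and Pcdhga11 at -1.74, a protocadherin. In CNT-1 they were at -0.03, 0.12, 0.06 and -0.32. Klf6, a transcription factor with the same letters, was at 1.65 in CNT-2 and was the highest of the 50.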
